A study of Mus musculus with 17 samples.

Results

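The miR-15 and miR-16 family is a group of microRNAs, short RNAs that lower the output of the messenger RNAs they pair with, and it was followed here in exosomes from mouse feces. Its members were chosen by name, as the listed arms of miR-15a, miR-15b, miR-16, miR-195a, miR-322 and miR-497a. Of the 10 names, 4 have a row among the 1487 small RNAs of the table: mmu-miR-15a-5p, mmu-miR-16-5p, mmu-miR-322-3p and mmu-miR-497a-5p (mmu, for mouse, is left off below). The other 6 (miR-15a-3p, miR-15b-5p, miR-15b-3p, miR-195a-5p, miR-195a-3p and miR-322-5p) were not analysed here. Together the 4 rows held 4946 counts, or 0.238% of all counts. A precursor hairpin gives a 5p and a 3p arm. Here 3 members are 5p arms and the fourth, miR-322-3p, is the arm opposite the one that carries the family's seed.

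All 17 libraries came from IL-10 KO mice, which lack interleukin 10 throughout the body on a C57BL/6J background and serve to study inflammatory bowel disorder. The mice, 4 weeks old when obtained and housed singly, were sampled at a start-point (10 libraries, 7 male and 3 female) and at an end-point (7 libraries, 5 male and 2 female). The ages at sampling are not given in the sources used here, the labels' protocols name no agent, and libraries of wild-type mice were not analysed. Of the 10 mice, 6 gave libraries before and after, whereas 4 gave a start-point library alone. End-point libraries 1 and 2 both carry the label of mouse 1, so by the labels the end-point libraries came from 6 mice. Whether library 2 came from another mouse is unsure, and an alternative takes it as mouse 2, which has no other end-point library. Values within mice follow the label.

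The 5p arms of this family share their seed, bases 2 to 8 from the 5′ end, which is the stretch that chooses targets. As background, miR-15a and miR-16 are made from 1 transcript, Dleu2, whose locus is often lost in human chronic lymphocytic leukemia, and the family is known to repress cell cycle genes such as cyclins D and E and the survival gene Bcl2. The X-linked cluster of miR-322 (the mouse counterpart of human miR-424) and miR-503 is known for its part in muscle differentiation and in leaving the cell cycle. In the gut, miR-16 is among the abundant miRNAs of most cell types, and it is also plentiful in red cells.

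The mature sequences, from RefSeq on GRCm38.p6, show which members carry the shared seed. All 10 listed names matched that table. Capitals mark the seed.
miR-15a-5p: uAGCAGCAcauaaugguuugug
miR-16-5p: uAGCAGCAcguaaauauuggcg
miR-497a-5p: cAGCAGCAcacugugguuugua
miR-322-3p: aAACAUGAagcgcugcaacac
miR-322-5p: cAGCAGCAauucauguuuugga
miR-195a-5p: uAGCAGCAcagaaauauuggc
miR-6419: cAGCAGCAaucugacacaugga
miR-503-3p: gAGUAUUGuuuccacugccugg
The 3 measured 5p arms have the seed AGCAGCA, as have miR-322-5p and miR-195a-5p, whereas the seed of miR-322-3p, AACAUGA, occurs in 1 of 1679 mature names of the RefSeq table, its own. The seed AGCAGCA occurs in 10 of those names. Of these 10, 4 have a row here: the 3 members and miR-6419, which is not in the family list and was found by its seed after the table was read. Read from the 5′ end without gaps, miR-6419 has the same first 10 bases as miR-322-5p and the same base at 14 of 22 positions. The sequence of miR-16-5p matches miR-195a-5p at 19 of 21 positions. How reads that could belong to several miRNAs were assigned is not given in the sources used here, so values of close relatives carry that uncertainty.

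The members come from 4 loci, with positions on GRCm38.p6 and host genes from GENCODE vM21. Mir15a (minus strand) lies in an intron of the long noncoding gene Dleu2, and miR-15a-5p maps to chr14:61632075-61632096. Mir16-1 starts 54 bases away from it in an annotated exon of Dleu2, with miR-16-5p at chr14:61631936-61631957. The same miR-16-5p sequence is made from Mir16-2, in an intron of the protein-coding gene Smc4, at chr3:69009918-69009939 on the plus strand, 66 bases from Mir15b. Counts of miR-16-5p therefore cannot be assigned to 1 locus. The arm miR-497a-5p maps to chr11:70234730-70234751 (plus strand), with Mir195a 241 bases beyond its hairpin, and miR-322-3p to chrX:53054269-53054289 (minus strand), with Mir503 200 bases from its hairpin. No other GENCODE gene overlaps the hairpins of Mir497 or Mir322. The Mir322 hairpin is shown to place the measured arm, in capitals, after the 5p arm that carries the family seed.
Mir322: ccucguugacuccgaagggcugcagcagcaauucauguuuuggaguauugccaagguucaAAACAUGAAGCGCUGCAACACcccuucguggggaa
In this hairpin of 95 bases the 5p arm takes bases 23 to 44 and the 3p arm bases 61 to 81.

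Library totals ran from 87527 to 178075 counts at the start-point and from 32320 to 161862 at the end-point. End-point libraries 1, 3 and 7 held under 75000 counts, unlike any from the start-point, so that for these 3 shallow depth cannot be told apart from the later sampling. Their Spearman correlation of log2 CPM (a library's counts scaled by its total) with the deeper end-point libraries averaged 0.37 over 12 pairs, against 0.68 over the 6 pairs of deeper end-point libraries. At the start-point, libraries 1, 6 and 7 also stood apart, at a mean of 0.87 among themselves and 0.49 with the other 7. Time point results of the tested members are therefore given with and without each set and both, and every setting that leaves out start-point libraries 1, 6 and 7, or end-point library 5 with the shallow libraries, was chosen after seeing the data. The labelled source is feces, and 9 of 10 listed intestinal epithelium miRNAs were in the table, at a summed 3778 to 19932 CPM at the start-point. Of the epithelium list 3 of 9 tested were called higher and 4 lower at the end-point (beside 33.7% of all small RNAs called in either direction), of 8 leukocyte miRNAs 1 higher and 1 lower of 5 tested, of 7 red cell miRNAs none of 3 tested, and of 5 smooth muscle miRNAs 2 higher and 1 lower of 4 tested.

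Setting the end-point against the start-point asks what differs between the samplings. The series' title frames this as disease progression, which here cannot be told apart from age or time, since no wild-type library was used. Across the table, edgeR's quasi-likelihood test called 428 of 1270 small RNAs, which is 33.7% (adjusted p under 0.05), with 17.4% called higher and 16.3% called lower at the end-point. Of the 4 members, 3 passed the filter on low counts and 1 was called, miR-322-3p, which fell. Neither miR-16-5p nor miR-497a-5p was called, and miR-15a-5p was too low to be tested. A count of 1 in 3 is close to the share over all small RNAs. Over the table the median log2 difference was -0.18 when TMM factors, which align the bulk of small RNAs between libraries, were used and -0.65 without them. Differences below use TMM factors unless stated. In a bulk library, fewer cells or vesicles of a type and less RNA in each cannot be told apart.

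The largest member by counts was miR-322-3p, with 2604 counts over the libraries, 52.6% of the family. At the start-point it had 819 CPM in library 1, 1725 in library 2, 1269 in library 3, 730 in library 4, 871 in library 5, 4595 in library 6, 5353 in library 7, 640 in library 8, 1114 in library 9 and 721 in library 10. At the end-point it had 438 CPM in library 1, 148 in library 2, 371 in library 3, 103 in library 4, 557 in library 5, 278 in library 6 and 376 in library 7. On this scale every end-point library lay below every start-point library, and start-point libraries 6 and 7 stood far above the rest. The same separation, with the end-point lower, was seen for 5.12% of tested small RNAs, and the opposite one for 0.472%. The margin was narrow: start-point library 8 had 640 CPM (95% Wilson interval 515 to 797) and end-point library 5 had 557 CPM (438 to 709). After scaling with TMM factors the time points overlapped, from 386 to 7088 CPM at the start-point and from 190 to 776 CPM at the end-point.

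On average miR-322-3p held 1784 CPM early (SD 1721, n = 10) and 325 CPM late (SD 160, n = 7). With TMM factors the log2 difference was -2.28 ± 0.60 (SE), adjusted p 0.00598 in edgeR's quasi-likelihood test. With library totals only it was -2.44, with an edgeR adjusted p of 0.00212. Within mice, in CPM before TMM scaling, miR-322-3p was lower at the end-point in 6 of 6, a pattern shared by 17.3% of tested small RNAs. In mouse 7 it went from 5353 to 557 CPM, and in mouse 9, the smallest change, from 640 to 278 CPM. With mouse identity as a replicate block the log2 fold change was -1.68 and the edgeR adjusted p 0.0712, so the call was lost. The block called 8.19% of all small RNAs, 4.41% lower and 3.78% higher.

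The size of the difference in miR-322-3p rested in part on the start-point libraries that stood apart. Without start-point libraries 1, 6 and 7 the log2 difference was -1.09 (edgeR adjusted p 0.0537), and the remaining 7 start-point libraries spanned 640 to 1725 CPM. Without the end-point libraries under 75000 counts it was -1.98, with an adjusted p of 0.0575, and without both sets -0.74, with 0.245. Leaving out any single library kept the call, with adjusted p from 0.00484 to 0.0176, and summing both libraries of mouse 1 gave -2.27, with 0.00991.

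**Figure D1:**
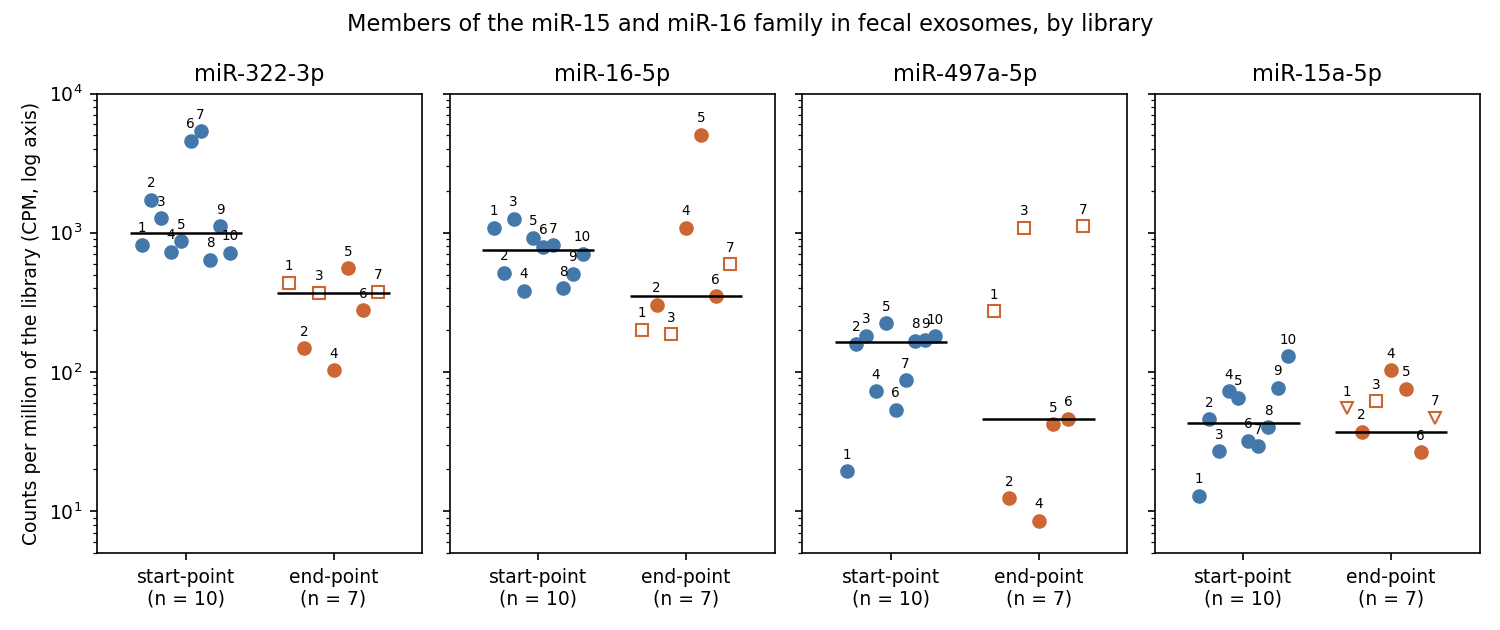
CPM (log axis) of the 4 measured members in each of 10 start-point and 7 end-point libraries, with the library number beside each point and the group median as a line. Open squares are end-point libraries under 75000 counts, and open triangles mark 0 counts, drawn at the level that 3 counts would give (the medians take them as 0). All end-point values of miR-322-3p lie below 640 CPM, the lowest start-point value, whereas miR-16-5p is high in end-point library 5 and miR-497a-5p in end-point libraries 1, 3 and 7.

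The member with the broadest known expression, miR-16-5p, held 1920 counts, 38.8% of the family. Start-point libraries 1 to 10 held, in order, 1090, 514, 1256, 382, 917, 795, 811, 400, 507 and 706 CPM. End-point libraries 1 to 7 held 201, 303, 186, 1087, 5073, 351 and 595 CPM. The time points overlapped. At the end-point, in CPM before TMM scaling, library 5 stood far above every other library of the series. On this scale libraries 4 and 7 were within the start-point range. Libraries 1, 2, 3 and 6 were below its lowest value. After TMM scaling the ranges were 275 to 1381 CPM at the start-point and 129 to 7070 CPM at the end-point.

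The mean of miR-16-5p was therefore higher late (1114 CPM, SD 1774, n = 7) than early (738 CPM, SD 294, n = 10). Its median was lower, 351 against 750 CPM. After TMM scaling the medians were closer, at 561 CPM late and 633 CPM early. With TMM factors the difference was 1.17 ± 0.62 (log2, SE; edgeR adjusted p 0.145), so miR-16-5p was not called. Without end-point library 5 it was -0.05, with an adjusted p of 0.954. Leaving out the shallow libraries gave 1.97, which passed (edgeR adjusted p 0.0124), and with end-point library 5 left out as well it was 0.80, with 0.27. With library totals in place of TMM factors, and only the shallow libraries left out, miR-16-5p was at 1.21 and did not pass (edgeR adjusted p 0.0761). That setting was chosen after seeing the data. On all libraries, library totals in place of TMM factors gave 0.61, with an edgeR adjusted p of 0.405. On all libraries limma-voom with TMM factors gave 0.12, with a limma-voom adjusted p of 0.907. Without start-point libraries 1, 6 and 7 the edgeR value was 1.55, with 0.112, and without these and the shallow libraries it passed, at 2.38 (edgeR adjusted p 0.0093). Within mice, in CPM before TMM scaling, miR-16-5p was higher in 3 of 6 and lower in 3 of 6. Some changes were small, from 400 to 351 CPM in mouse 9 and from 507 to 595 CPM in mouse 11. The replicate block on mouse, with TMM factors, gave 0.08, with an edgeR adjusted p of 0.949.

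Because red cells carry much miR-16, their markers were read in the same libraries. The red cell marker miR-451a was at 0 counts in 8 of 10 start-point and 3 of 7 end-point libraries, with at most 5 counts (38.4 CPM) in a start-point library. It had 67.5 CPM in end-point library 5 and 68.4, 338 and 157 CPM in end-point libraries 4, 6 and 7, all above every start-point library. In end-point library 5 miR-486a-5p went the other way, with 50.6 CPM against 149 to 1006 CPM at the start-point. It was within that range in end-point libraries 1, 6 and 7, at 493, 192 and 345 CPM. In end-point library 5 miR-486a-3p had 50.6 CPM, against 118 to 606 CPM at the start-point. There miR-486b-5p had 143 CPM, within its start-point range of 17.5 to 223 CPM. The summed level of the 4 red cell miRNAs in the table was 312 CPM in end-point library 5, 410 to 1264 CPM over the start-point libraries and 55.6 to 1065 CPM over the end-point libraries. The part of red cells in the level of miR-16-5p was not tested.

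A different split was seen for miR-497a-5p, which is made from the same locus as miR-195a. Its start-point level was 19.4 CPM in library 1, 160 in library 2, 182 in library 3, 73.0 in library 4, 223 in library 5, 53.7 in library 6, 87.5 in library 7, 168 in library 8, 169 in library 9 and 180 in library 10. At the end-point, libraries 1, 3 and 7 held 274, 1083 and 1112 CPM, and libraries 2, 4, 5 and 6 held 12.4, 8.56, 42.2 and 46.3 CPM. The first 3, which are those under 75000 counts, lay above all start-point libraries. Of the 4 deeper ones, libraries 2 and 4 lay below all start-point libraries, and libraries 5 and 6 above start-point library 1 only. These orderings are in CPM before TMM scaling. After it the ranges were 24.5 to 217 CPM at the start-point and 15.9 to 1048 CPM at the end-point. The high values rest on 15, 35 and 71 counts, with 95% Wilson intervals of 166 to 452, 779 to 1506 and 882 to 1402 CPM.

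Averages of miR-497a-5p were 132 CPM early (SD 67.4, n = 10) and 368 CPM late (SD 506, n = 7), a log2 difference of 1.48 ± 0.61 (SE). The edgeR adjusted p was 0.0622, so it was not called. Leaving out end-point library 2, 4, 5 or 6 gave a call, with adjusted p down to 0.0281, and without end-point library 7 the value was 0.75, with 0.352. With the 3 shallow libraries removed the direction turned, to -1.19 (edgeR adjusted p 0.0687), and with start-point libraries 1, 6 and 7 removed as well it was called lower, at -1.37 (0.0243). With only those 3 start-point libraries removed it was 1.24 (0.181). Summing both libraries of mouse 1 gave a call for higher, 1.61 (0.0385). The difference was smaller, and not called, with the replicate block on mouse (0.62, edgeR adjusted p 0.718) and with library 2 taken as mouse 2 in that block (0.26, with 0.867). The same held in male libraries only (0.82, with 0.454) and in limma-voom (0.35, with a limma-voom adjusted p of 0.724). In CPM before TMM scaling, miR-497a-5p was higher at the end-point in mice 1, 3 and 11 and lower in mice 5, 7 and 9. The value for mouse 1 averages end-point libraries 1 and 2, which differ (274 and 12.4 CPM), and mouse 2 had 160 CPM at the start-point. The summed level of the 4 smooth muscle miRNAs in the table was 3014 to 12387 CPM in the 3 shallow end-point libraries, 1087 to 4654 CPM in the deeper ones and 432 to 2190 CPM at the start-point. The part of these markers, and of depth, in the split was not tested.

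**Figure D2:**
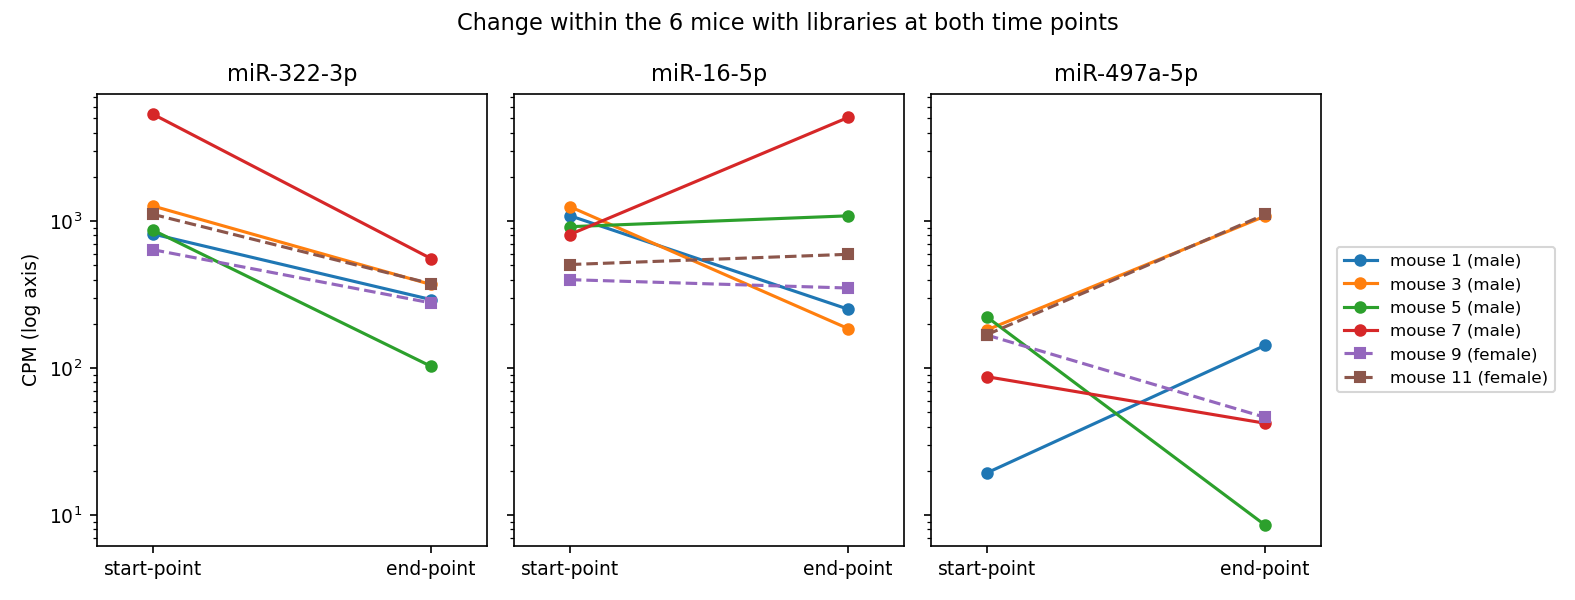
CPM (log axis) of 3 members at both time points in the 6 mice that have both, with 1 line per mouse and the mean of the 2 end-point libraries for mouse 1. Solid lines are males and dashed lines females. The lines of miR-322-3p fall in 6 of 6 mice, whereas those of miR-16-5p and miR-497a-5p go up in 3 and down in 3.

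The other arm of the same hairpin, miR-497a-3p, was in the table and is no member. A ratio of the 2 arms within a library does not depend on scaling between libraries. At the start-point miR-497a-5p had from 0.214 to 1.0 counts per count of miR-497a-3p, so the 5p arm never exceeded the 3p arm. The ratio was 1.36, 8.75 and 5.46 in end-point libraries 1, 3 and 7, from 15 against 11, 35 against 4 and 71 against 13 counts. In end-point libraries 2, 4, 5 and 6 it was 0.333, 0.2, 0.185 and 0.368. The 5p arm thus had more counts than the 3p arm in the 3 shallow libraries alone, a difference that was not tested. In end-point library 1 the Wilson intervals of the arms overlapped, at 166 to 452 CPM (5p) and 112 to 360 CPM (3p). An excess there cannot be told apart from counting error. In end-point libraries 3 and 7 the intervals of the arms did not overlap. The other arm, miR-497a-3p, averaged 251 CPM early (SD 144, n = 10) and 137 CPM late (SD 77.4, n = 7). It was not called, at -0.35 ± 0.36 (log2, SE; edgeR adjusted p 0.467).

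**Figure D3:**
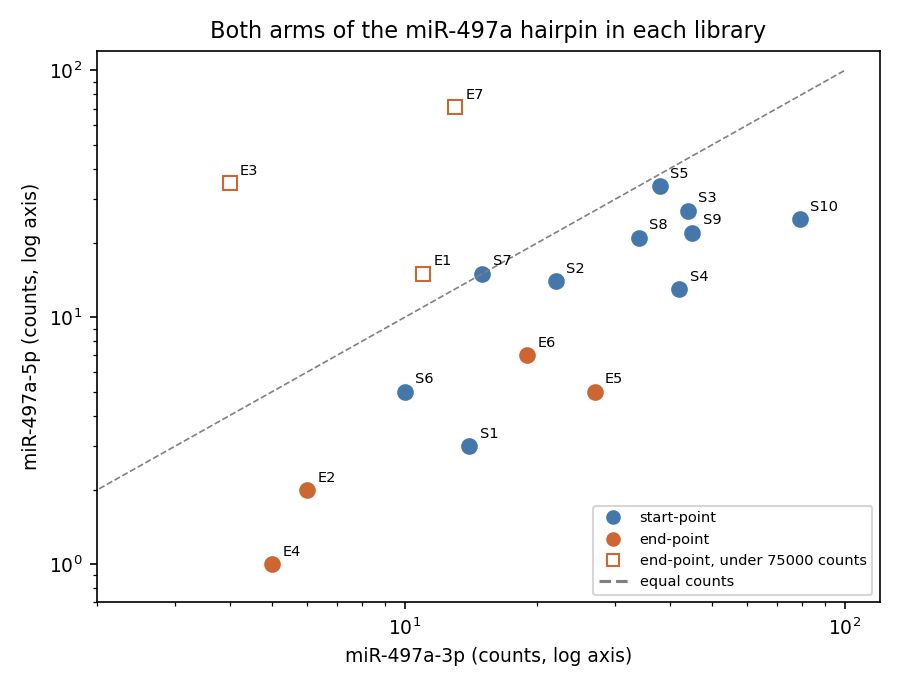
Counts of miR-497a-5p against counts of miR-497a-3p in each library (both axes log), with S for start-point, E for end-point, open squares for end-point libraries under 75000 counts and a dashed line at equal counts. End-point libraries 1, 3 and 7 lie above the line, start-point library 7 lies on it with 15 counts of each arm, and the other libraries lie below.

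The scarcest member was miR-15a-5p, made beside miR-16 from Dleu2, with 107 counts over all libraries and 10 counts or more in 5 of 17. Its level at the start-point ran from 12.9 to 130 CPM with a median of 42.9 CPM. At the end-point it had 0 counts in libraries 1 and 7, which allows up to 54.8 and 47.0 CPM, and 37.1, 61.9, 103, 76.0 and 26.5 CPM in libraries 2 to 6. These limits lie within the start-point range, so a lower level in those 2 libraries was not detectable at this depth. With no filter, the edgeR log2 fold change was 0.58 ± 0.637 (SE), with an adjusted p of 0.505. Once the shallow libraries were left out it passed the filter and was called higher, at 1.39 (edgeR adjusted p 0.0165), but with library totals in place of TMM factors the same libraries gave 0.20, with 0.764. TMM factors of the deeper end-point libraries were 0.419 to 0.745, against 0.763 to 1.92 at the start-point.

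**Figure D4:**
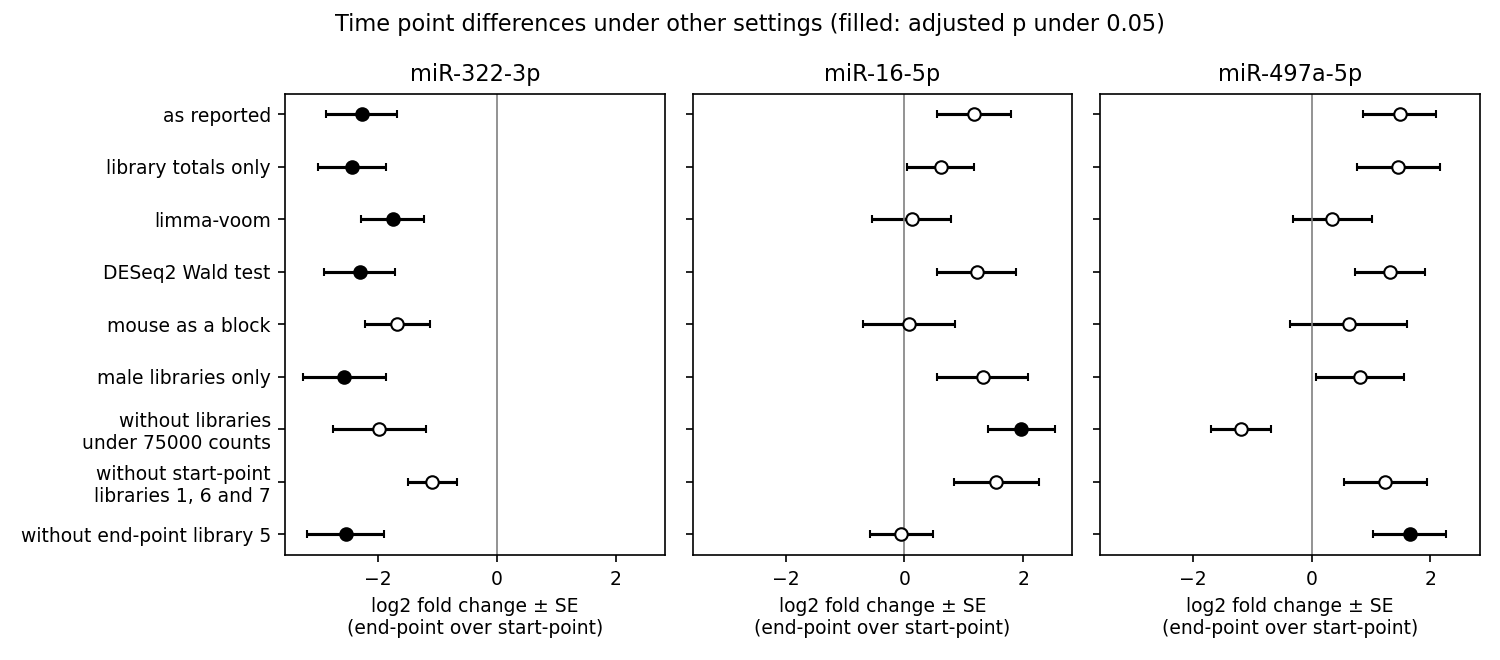
Log2 fold change of end-point over start-point (points, with SE as bars) for the 3 tested members under 9 settings, with filled points where the adjusted p was under 0.05. The estimates of miR-322-3p lie between -2.57 and -1.09, those of miR-16-5p fall to -0.05 without end-point library 5, and miR-497a-5p turns from 1.48 to -1.19 without the libraries under 75000 counts.

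The make-up of the family differed between libraries. In 8 of 10 start-point libraries miR-322-3p was the most abundant member and in 2 it was miR-16-5p. At the end-point, miR-16-5p led in 4 of 7, miR-497a-5p in 2 and miR-322-3p in 1. Some leads were narrow. Counts of miR-322-3p against miR-16-5p were 188 against 186, 133 against 140 and 100 against 98 in start-point libraries 3, 5 and 10. In end-point library 6 they were 42 against 53. The members are all 21 or 22 bases long, so CPM can be set side by side, although ligation during library making favours some sequences over others. As a share of all counts the 4 members held 0.125% to 0.628% at the start-point and 0.05% to 0.575% at the end-point, with medians of 0.201% and 0.13%. Ranked by counts among the 1487 small RNAs, miR-322-3p had a median rank of 149 at the start-point and 381 at the end-point, and miR-16-5p of 258 and 257.

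Sex was compared over both time points, with time point as a covariate. The 17 libraries come from 10 mice and the model takes them as independent, so its p-values and SEs do not account for libraries that share a mouse. In edgeR's quasi-likelihood test 0 of 1462 small RNAs were called (0.0%), with 140 (9.58%) at an unadjusted p under 0.05, while the DESeq2 Wald test called 23 and limma-voom 0. None of the 4 members was called in edgeR. The lowest adjusted p of the members was 0.462, for miR-16-5p, at a log2 fold change of females over males of -1.66 ± 0.68 (SE). Early libraries averaged 823 CPM in males (SD 305, n = 7) and 538 CPM in females (SD 155, n = 3). Without end-point library 5, from a male, the value was -1.10. The other values were -0.52 ± 0.74 for miR-15a-5p, -1.26 ± 0.63 for miR-322-3p and 0.58 ± 0.67 for miR-497a-5p (log2, SE). Start-point libraries 1, 6 and 7, which stood apart, all came from males. Without them the value for miR-322-3p was -0.6, with an edgeR adjusted p of 0.959.

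Relatives of the family were read from a list of 21 names, made of miRNAs from the same gene clusters and of miR-103 and miR-107, whose seed is the family's moved by 1 base. Of these, 12 were in the table and 9 passed the filter. In edgeR 1 of the 9 was called higher, 0 were called lower and 8 were not called, beside 17.4% called higher and 16.3% called lower over all small RNAs. Their median log2 fold change was -0.35, beside -0.18 for all small RNAs. The call was miR-503-3p, the 3p arm of the hairpin next to Mir322, which had 0 to 208 CPM at the start-point and 237, 80.3, 712, 0, 67.5, 26.5 and 1362 CPM in end-point libraries 1 to 7. As with miR-497a-5p, it was highest in end-point libraries 1, 3 and 7, and the 4 deeper ones overlapped the start-point libraries. The difference was 2.33 ± 0.70 (log2, SE; edgeR adjusted p 0.013). Leaving out the shallow libraries gave 0.51, with 0.616, without end-point library 7 it was 1.40, with 0.11, and with the replicate block it was 1.48, with 0.392. The call was also lost without start-point libraries 1, 6 and 7 (1.94, with 0.0513), without these and the shallow libraries (0.19, with 0.839) and in limma-voom (1.30, with 0.236).

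In edgeR on all libraries, arms of the X-linked cluster were thus called in opposite directions or not called. Neither call held without the libraries under 75000 counts or with the replicate block on mouse. Beside miR-322-3p and miR-503-3p, miR-351-5p, the most abundant of the cluster at 1058 to 78273 CPM at the start-point and 1326 to 30175 CPM at the end-point, had a log2 fold change of 0.15 ± 0.74 (SE). Also given, though chosen after their values were seen, are relatives that were not called. The log2 values were -1.67 ± 0.73 (SE) for miR-542-5p and -1.14 ± 0.70 for miR-450a-2-3p, with edgeR adjusted p of 0.0781 and 0.215. In start-point libraries 1, 6 and 7 miR-542-5p averaged 3257 CPM, against 493 CPM in the other 7 and 311 CPM at the end-point. Also from the cluster, miR-542-3p had -0.35 ± 0.52 and miR-351-3p -0.43 ± 0.42, with edgeR adjusted p of 0.632 and 0.457. Of the miRNAs with the neighbouring seed, miR-103-3p had -0.89 ± 0.49 and miR-107-3p 0.36 ± 0.59, with edgeR adjusted p of 0.164 and 0.667.

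The seed relative miR-6419, whose mature sequence maps to chr2:17563541-17563562 (plus strand), was lower at the end-point. Its start-point level was 392 to 842 CPM in 7 libraries and 2993, 4617 and 3131 CPM in libraries 1, 6 and 7. At the end-point it had 54.8, 124, 124, 120, 338, 26.5 and 94.0 CPM in libraries 1 to 7, all below the start-point. That separation in CPM was seen for 5.12% of tested small RNAs. After TMM scaling the time points overlapped, with a lowest start-point value of 354 CPM and a highest end-point value of 471 CPM. The difference was -3.17 ± 0.74 (log2, SE; edgeR adjusted p 0.00205), and with the replicate block on mouse it was -2.92, with 0.0222. In CPM before TMM scaling miR-6419 was lower in 6 of 6 mice, as were 17.3% of tested small RNAs. Without the shallow libraries the TMM-scaled difference was -2.53, with an edgeR adjusted p of 0.0364. Without start-point libraries 1, 6 and 7 it was -1.51, with 0.0372. Without these and the libraries under 75000 counts it was -0.82, with 0.222.

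By a rule set for the most abundant member, the small RNAs outside the family with the pattern most like that of miR-322-3p were sought over the 17 libraries, by Spearman correlation of TMM-scaled log2 CPM. They were miR-3547-3p (0.87), miR-7118-3p and miR-6419 (both 0.84), and miR-105 and miR-5134-5p (both 0.81). These are the 5 highest of all tested small RNAs and are given as a description with no test, since the libraries share time point, depth and the sets that stand apart. Over the 10 start-point libraries alone the values were 0.58 to 0.66, and over the 7 end-point libraries 0.39 to 0.72.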

How the data were processed

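The authors deposited unnormalized read counts for each small RNA and library, with 1439 mature miRNA and 48 piRNA rows. Per the labels' protocols, libraries were made with the QIAseq miRNA kit, which carries molecular identifiers, from exosomes precipitated with ExoQuick. Per the submitters' processing notes, bcl2fastq and GRCm38 were used. The aligner, the counting tool and whether identifiers were collapsed are not given in the sources used here.

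From the counts, edgeR 4.0.16 in R 4.3.3 was run over all small RNAs and 17 libraries (TMM factors, filterByExpr, glmQLFit with legacy = FALSE, Benjamini-Hochberg adjustment). CPM are counts over library totals. Log2 CPM used a prior count of 2. Alternatives used limma 3.58.1 and DESeq2 1.42.0. Intervals are 95% Wilson intervals and the limit for 0 is 3 counts, covering counting error only.

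Mouse identity in the labels pairs the libraries. Deviations from the time point's mean correlated at 0.094 on average in 7 same-mouse pairs (-0.07 to 0.26) and at -0.011 in 63 other pairs. No 2 libraries agreed within sampling noise (chi-square per degree of freedom at least 10.1).

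On simulated counts for 1270 small RNAs, the time point test recovered 12.9%, 72.1% and 96.8% of true log2 changes of 1, 2 and 3. For sex, over 1462, it recovered 5.97%, 57.6% and 80.3%. False calls made up 5.08% of the calls for time point and 5% of those for sex. The simulated libraries were drawn independently, with no shared mice, no sets that stand apart and no shift in make-up beyond the changes put in. Recovery in the real libraries can therefore differ.

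The rule named all members whatever their values, and relatives where called. Other relatives were named after their values were seen. Of the 10 names, 6 have no row here. The planned test of 5p to 3p ratios had 0 hairpins with both arms among tested members and was not run. Members and lists were chosen with earlier results of these data known, and miR-6419 after its seed was seen.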

Additional observations from a re-analysis of the deposited data

Results flagged for a closer look

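End-point library 5 held 5073 CPM of miR-16-5p, and the next highest end-point library held 1087 CPM. The gap was 0.816 of the group's range, above the 95% critical value of Dixon's test for 7 libraries. The same library held the highest end-point level of miR-6419, 338 CPM against 124 CPM in the next, a gap of 0.687 of the range. These were 2 of 12 groups of values examined (6 miRNAs at 2 time points), and both flags come from the same library. The test was run on CPM without logs. Its rate of about 1 flag in 20 groups by chance holds for normally distributed values. For values as skewed as these the rate is not known here, so no conclusion is drawn from the flags.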

How the results depend on the processing

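Over all small RNAs, the 428 calls by time point became 211 in male libraries only, 104 with the replicate block on mouse, 85 with that block and without end-point library 2, 114 with library 2 taken as mouse 2, and 745 with library totals only and without the libraries under 75000 counts, an alternative chosen after seeing the data. Leaving out 1 library gave 365 to 463. Calls were 153 higher and 327 lower with library totals only, and 122 and 240 with limma-voom. The sex comparison went from 0 calls to 1 with library totals only and 23 with the DESeq2 Wald test, and to 0 to 1 when 1 library was left out.

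The fall of miR-322-3p kept its direction in all 19 other alternatives and its call in 12 of them, and kept both in 17 of 17 with 1 library left out. Without the libraries under 75000 counts, miR-497a-5p turned to -1.19, to -1.37 without start-point libraries 1, 6 and 7 too, to -1.35 without end-point library 5 too, and to -2.2 with library totals only. In that last setting miR-503-3p turned to -0.86. Leaving out 1 library gave -0.05 to 1.47 for miR-16-5p, the lowest without end-point library 5. For sex, miR-15a-5p turned to 0.17 with library totals only, and miR-497a-5p ranged from -0.37, without end-point library 7, to 1.24. The cause was not tested. Depth limits miR-15a-5p most, with 10 counts or more in 5 libraries.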
